A study of Mus musculus with 22 samples.

Results

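The 33 genes described here make cholesterol and fatty acids or control that synthesis, and they were followed through 6 cell types sorted from the crypts of the mouse colon. They were chosen by name, from textbook pathways, among the 24421 genes of the deposited count files, with earlier results of these data known. They comprise 8 genes for the steps up to squalene, 10 for the steps from squalene to cholesterol, 5 that control the SREBP transcription factors, 4 that move cholesterol and 6 for fatty acid synthesis. All 33 passed the filter on low counts and the minimum mean of 50 normalized counts. RNA was sequenced in 22 libraries from wild type male C57BL/6N mice aged 5-7 weeks, with no treatment in any group. Every group was sorted as live Epcam+, Cd31-, Cd45- cells. Stem cells (3 libraries) were Cd44highest, Cd24low and Ckit-, AbsPro (absorptive progenitors, 3 libraries) were Cd44med/hi, Cd24low and Ckit-, and SecPDG (secretory progenitors with deep crypt secretory and goblet cells, 4 libraries) were Cd44hi, Cd24med and Ckitmed. Tuft cells (5 libraries) were Ckit+ and Cd24hi, enterocytes (Ent, 5 libraries) were Cd44low/- and Cd24-, and enteroendocrine cells (EEC, 2 libraries) were Cd44low/- and Cd24+. Each stem and AbsPro library came from a single mouse by the methods of the study, and the other libraries each pooled several mice.

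Cholesterol is built from acetyl-CoA through mevalonate, farnesyl diphosphate, squalene and lanosterol. The pathway is set mainly by SREBP-2, the product of Srebf2, which Scap escorts from the endoplasmic reticulum when membrane sterol is low and which Insig proteins hold back when it is high. SREBP-1, from Srebf1, acts more on fatty acid genes, and the colon epithelium, which renews itself within days, needs both lipids for new membranes. Insig1 is itself a target of SREBP, and Abca1 is a target of the sterol-sensing LXR receptors and exports cholesterol.

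Promoter sequences were at hand for 26 of the 33 genes, from RefSeq on GRCm38.p6, each reaching from 250 bases before to 50 after the gene start. They are shown because SREBP acts through a sterol element beside a site for the factor NF-Y. The letters TCACNCCAC, a core of the sterol element, stood on either strand in the promoter of 1 member, Hmgcs1, and in 1.44% of the 27025 genes with a promoter. The letters CCAAT, read by NF-Y, stood on either strand in 21 of the 26 members, against 41.1% of all genes. Of the 18 members called in a comparison of any pair of cell types, 14 had a promoter sequence and 12 of these held CCAAT. The windows below give, for genes that the results turn on, the sterol element of Hmgcs1 and the CCAAT or its reverse complement ATTGG nearest before the gene start, with the match in capitals and each window read along the strand of its gene. Offsets are counted from the start used for the RefSeq promoter. Gene positions printed further on are from GENCODE, whose starts can differ. The windows of Cyp51 and Msmo1 lie inside those GENCODE positions. No CCAAT shown overlapped the sterol element. A match is a run of letters and not a measured binding site.
Hmgcs1, sterol element at -137 from the start, plus strand, chr13:119690204-119690232: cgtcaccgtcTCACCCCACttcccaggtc
Hmgcs1, at -45, plus strand, chr13:119690296-119690320: cccgcctctcATTGGctgaaagcgg
Cyp51, at -29, minus strand, chr5:4104712-4104736: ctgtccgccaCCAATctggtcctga
Msmo1, at -55, minus strand, chr8:64733619-64733643: gtggggcggaCCAATtacgacaggc
Insig1, at -216, plus strand, chr5:28071186-28071210: ccctcctcccATTGGctccggcggc
Sc5d, at -24, minus strand, chr9:42264310-42264334: ccggctgctgATTGGccggctgcct
Lss, at -62, plus strand, chr10:76531533-76531557: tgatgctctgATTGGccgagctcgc

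Before the results, some libraries stand apart. Counts on genes ranged from 4122122 to 22462518 per library, and the share of reads outside genes was 40.9% to 68.8% in 18 libraries but 81.0% to 83.1% in Ent 1, Ent 2 and Ent 3 and 89.7% in EEC 1. In Ent 4, Ent 5 and EEC 2 it was 66.8%, 68.8% and 64.5%, and in stem cells 45.2% to 48.5%. Gene families foreign to the colon epithelium, such as odorant receptors, took a CPM of 3075 to 7096 in the former 4 libraries and 625 to 1318 in the latter 3. Counts of genes called are therefore also given without those 4 libraries, as are single values in enterocytes and EEC whose call or size changed. The labels were checked against markers: the summed normalized count of stem cell markers was 15028 to 19400 in stem cells and at most 8749 elsewhere, that of tuft markers was 26757 to 73486 in tuft cells and at most 8563 elsewhere, and that of enteroendocrine markers was 599783 to 1725770 in EEC and at most 27645 elsewhere. Goblet and deep crypt secretory markers summed to 816234 to 1208870 in tuft cells and 839668 to 3303370 in SecPDG, and enterocyte markers to 52155 to 76924 in enterocytes, 67796 to 103467 in AbsPro, 23185 in EEC 1, 137153 in EEC 2 and at most 23203 in the other cell types. The files of SecPDG and tuft cells carry another style of name than those of the other 4 cell types, which cannot be told apart from the cell type in comparisons across that line.

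Summed transcripts for sterol synthesis lay lower in every stem cell library than in any AbsPro, SecPDG or tuft library. The 18 sterol synthesis genes summed to 8847, 10462 and 8682 normalized counts (counts scaled to a common library size) in the stem cell libraries. The sum was 17652, 14148 and 15628 in AbsPro and 15916, 22682, 18123 and 22333 in SecPDG. In tuft cells the sum ran from 14583 through a median of 21132 to 29257, also without overlap with stem cells, while enterocytes ran from 8422 through 9747 to 19854 and EEC held 4830 and 12997. In such bulk libraries, fewer cells that express a gene and less RNA per cell cannot be told apart.

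**Figure D1:**
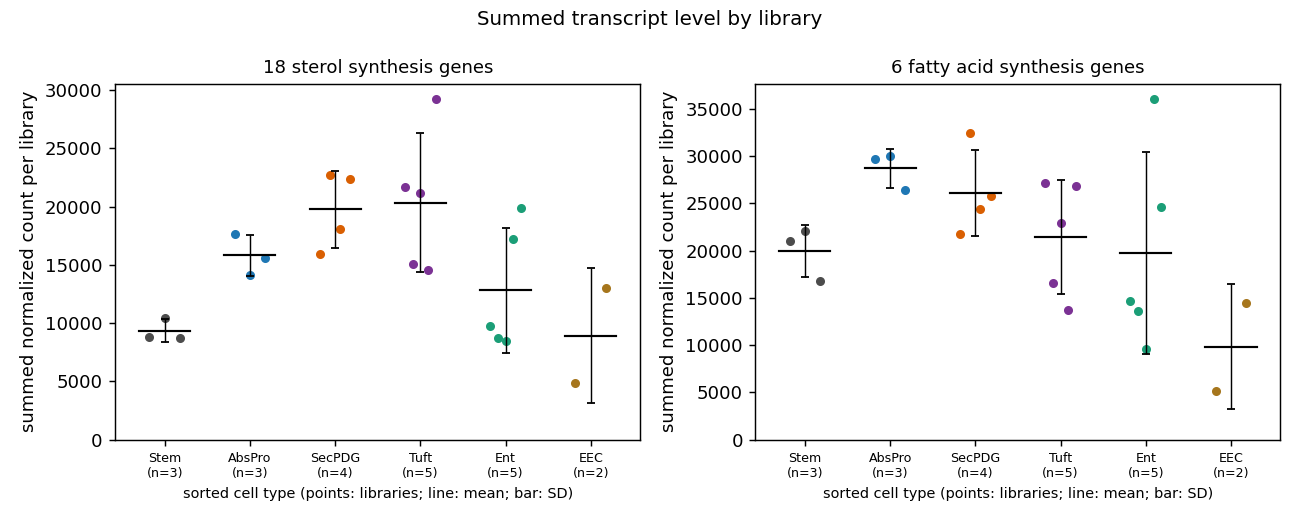
Summed normalized count of the 18 sterol synthesis genes (left) and of the 6 fatty acid synthesis genes (right) in each library, by sorted cell type; points are libraries, lines the means and bars the SD. All 12 AbsPro, SecPDG and tuft libraries lie above the 3 stem cell libraries on the left, whereas on the right AbsPro lies above stem cells, both EEC libraries lie below them and the other cell types overlap with them.

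Each cell type was set against stem cells to ask how these genes change as cells leave the stem cell state, and all 5 comparisons share the same 3 stem cell libraries. Calls required p under 0.01 after Benjamini-Hochberg adjustment over the 22781 genes in edgeR's quasi-likelihood test. A call also needed a mean of at least 50 normalized counts, which all 33 members and 13188 of the 22781 genes reached. The shares over all genes thus include genes that could not be called, and are lower than among those that could. In AbsPro 1 of the 33 genes was called higher, against 0.496% of all genes, and 0 were called lower, against 0.0922%. With p unadjusted, 10 were higher and 1 lower at p under 0.05, where 9.11% of all genes passed in either direction. DESeq2 called 3 higher and 0 lower. In SecPDG 7 were higher (all genes 3.38%) and 0 lower (1.60%). There 1 was lower at an unadjusted p under 0.05 (17.4% of all genes in either direction) and 0 by DESeq2. In tuft cells 9 were higher (7.83%) and 0 lower (4.23%). There 0 were lower at an unadjusted p under 0.05 (46.4% of all genes in either direction) and by DESeq2.

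In enterocytes 4 were higher (10.7%) and 2 lower (11.5%). Of the 13188 genes that could be called, 2446 were higher and 2614 lower there, so neither count is an excess. In EEC 0 were higher (10.8%) and 4 lower (9.14%). At an unadjusted p under 0.05, 3 were higher in EEC, where 54.7% of all genes passed in either direction, and DESeq2 called 6 higher. The median log2 fold change of the 33 genes was 0.46 in AbsPro, 0.36 in SecPDG and 0.39 in tuft cells, beside medians of 0.04, -0.06 and -0.09 over all genes with a mean of at least 50 normalized counts. It was 0.15 in enterocytes and -0.26 in EEC, beside -0.30 in each over all genes. With the size factors of DESeq2 it was 0.67 in enterocytes (all genes 0.35) and 0.28 in EEC (all genes 0.48), and with library totals 0.57 (0.24) and -0.05 (0.14), so that the sign in EEC depended on the scaling. Of the 18 sterol synthesis genes alone, 18 had a positive log2 fold change in AbsPro, 17 in SecPDG and 16 in tuft cells. Called higher were 0 of them in AbsPro, 5 in SecPDG and 7 in tuft cells. With the 6 cell types tested together, 16 of the 33 genes differed, against 33.6% of all genes. That share is 7656 genes, out of 13188 that could be called, so 16 of 33 is no excess.

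**Figure D2:**
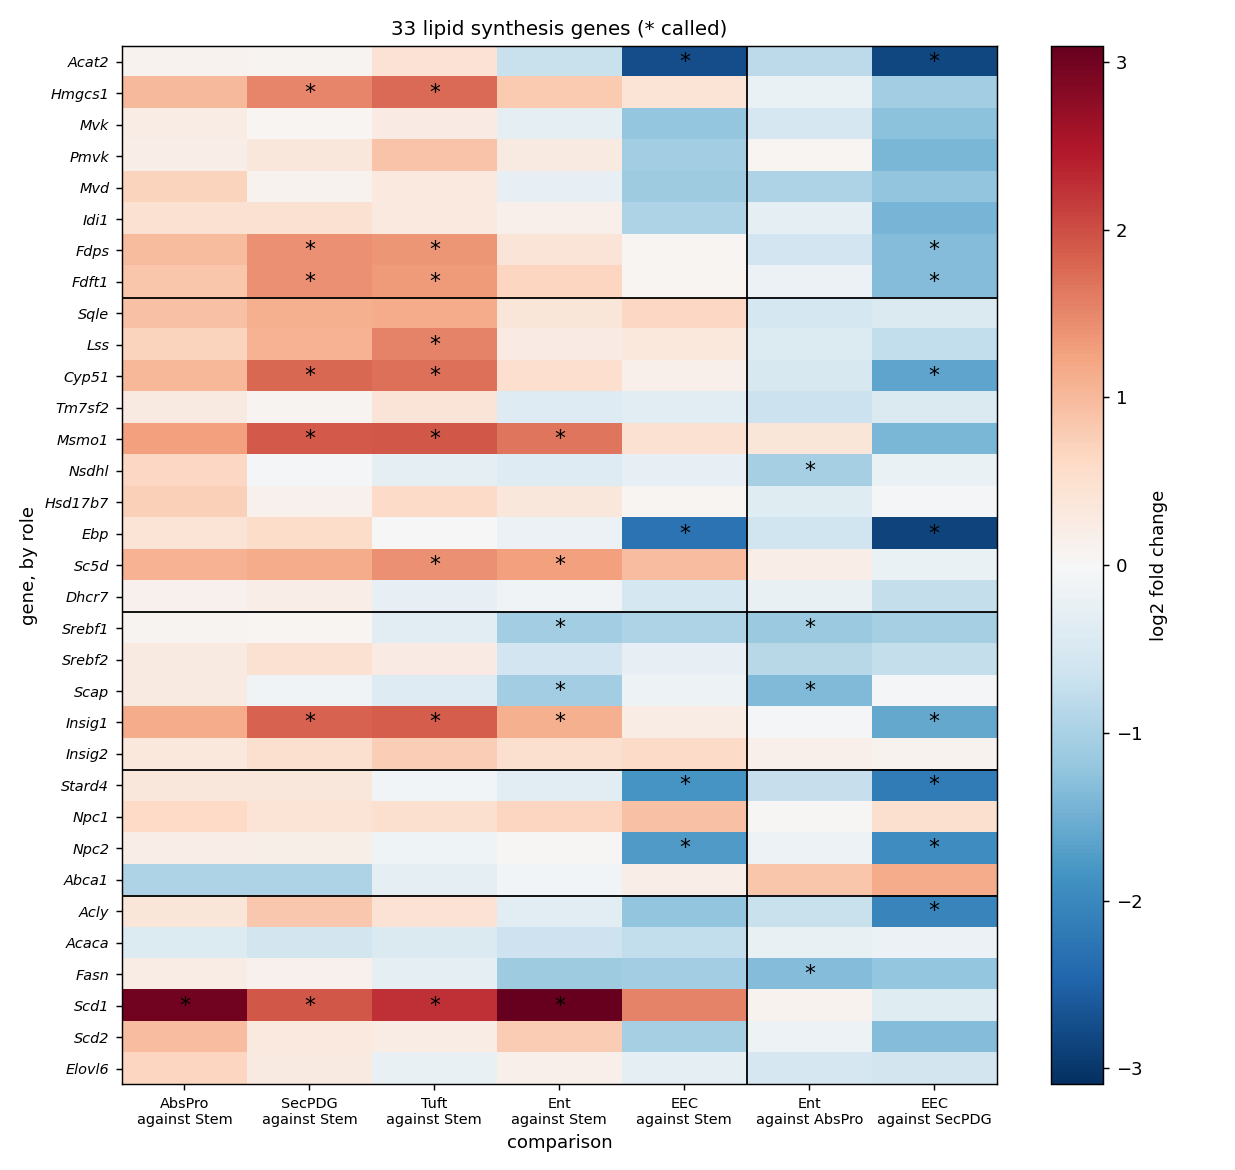
Log2 fold change of the 33 genes (rows, by role from the steps up to squalene at the top to fatty acid synthesis at the bottom) in 7 comparisons (columns); asterisks mark genes called. Most sterol synthesis rows are red in AbsPro, SecPDG and tuft cells against stem cells, with Nsdhl and Dhcr7 pale blue in tuft cells, and the Scd1 row is the darkest red, up to 3.10 in enterocytes.

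With the 4 libraries over 80% outside genes left out, a comparison chosen after the values were seen, 5 members were higher in AbsPro (1.49% of all genes), 11 in SecPDG (4.92%) and 10 in tuft cells (8.28%). Enterocytes then had 11 (6.49%) and EEC 5 (7.46%). In AbsPro the 5 were Hmgcs1, Cyp51, Msmo1, Scd1 and Scd2. Those added were Lss, Sc5d, Sqle and Acly in SecPDG and Sqle in tuft cells. In enterocytes they were the 4 genes called on all libraries (Msmo1, Sc5d, Insig1 and Scd1) with Hmgcs1, Fdps, Fdft1, Sqle, Cyp51, Npc1 and Scd2. In EEC they were Hmgcs1 (log2 fold change 1.12), Sqle (1.44), Sc5d (1.47), Npc1 (1.26) and Scd1 (2.00). Those called lower in EEC were 5 (6.38% of all genes), namely Acat2 (-2.63), Pmvk (-4.57), Ebp (-1.46), Stard4 (-1.25) and Acaca (-1.34), and 0 were called lower in enterocytes (3.80%) by edgeR, with 0 lower at an unadjusted p under 0.05, where the log2 fold change was -0.37 for Srebf1 and -0.58 for Scap. The enterocyte group then held 2 libraries and the EEC group 1, which was assumed to vary like the other groups. That EEC library, EEC 2, had the highest sum of enterocyte markers of all 22 libraries, 137153. Pmvk had 320 normalized counts in EEC 1 and 12.1 in EEC 2, against 254 to 350 in stem cells. Hmgcs1 had 797 and 2951 (stem cells 1142 to 1593), Sqle 300 and 1850 (604 to 779) and Sc5d 300 and 729 (178 to 342). EEC 1 thus did not share the change of these genes. Acat2, Ebp, Stard4 and Acaca lay below, and Npc1 and Scd1 above, all stem cell libraries in both.

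Among the steps up to squalene, Hmgcs1, the synthase that makes HMG-CoA (chr13:119690379-119708260, plus strand), had 1502, 1593 and 1142 normalized counts in stem cells. It had 3202, 2271 and 3066 in AbsPro, 3197, 4718, 3562 and 4637 in SecPDG and 4549, 3329, 5298, 3142 and 7377 in tuft cells. All of these lay above the stem cell libraries. Hmgcs1 was 2.85-fold higher in SecPDG (log2 1.51 ± 0.38 SE, adjusted p = 0.0046, edgeR) and 3.36-fold higher in tuft cells (log2 1.75 ± 0.37, adjusted p = 0.00035).

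Fdps makes farnesyl diphosphate (chr3:89093588-89101959). It stood at 418, 616 and 441 normalized counts in stem cells and at 1142, 1453, 1130 and 1573 in SecPDG. It was called higher in SecPDG, by 2.68-fold, and in tuft cells, by 2.58-fold. Fdft1, squalene synthase (chr14:63145150-63179578), stood at 754, 1068 and 675 in stem cells and at 2056, 2423, 1962 and 2396 in SecPDG. It was 2.65-fold higher there and higher in tuft cells too, by 1.32 ± 0.33 on the log2 scale. The counts disregard strand, and 18.3% of the exon length of Fdft1 lies across exons of Ctsb on the other strand, where reads of the pair cannot be told apart.

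Other steps of this arm stayed under the threshold against stem cells in AbsPro, SecPDG, tuft cells and enterocytes. They are Acat2 (acetoacetyl-CoA thiolase), the kinases Mvk and Pmvk, Mvd (mevalonate diphosphate decarboxylase) and Idi1 (isopentenyl diphosphate isomerase). Idi1 had 255, 219 and 208 normalized counts in stem cells, 308, 384 and 240 in AbsPro and 205, 379, 283 and 407 in SecPDG. In tuft cells it had 166, 255, 284, 250 and 425, and the cell types overlapped. Its log2 fold change was 0.48 ± 0.39 in SecPDG and 0.31 ± 0.38 in tuft cells.

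From squalene to cholesterol, Cyp51, which removes a methyl group from lanosterol (chr5:4081145-4104746, minus strand), had 636, 903 and 710 normalized counts in stem cells and 1724, 1208 and 1638 in AbsPro. SecPDG held 2587, 2831, 2188 and 2718, and tuft cells 2309, 1765, 3081, 1661 and 3336. None of these 12 libraries reached down to the stem cell range. Cyp51 was 3.43-fold higher in SecPDG (log2 1.78 ± 0.37, adjusted p = 0.000552, edgeR) and 3.24-fold higher in tuft cells (log2 1.70 ± 0.36, adjusted p = 0.000404). Msmo1, the next demethylating oxidase of the path (chr8:64718139-64733792, minus strand), had 385, 587 and 593 in stem cells and 1453, 2207, 1930 and 2165 in SecPDG. Tuft cells held 2419, 1434, 1694, 1328 and 3031 and enterocytes 1076, 958, 1107, 1920 and 3214, all above stem cells. It was 3.70-fold higher in SecPDG, 3.80-fold in tuft cells and 3.15-fold in enterocytes, where the log2 fold change was 1.66 and, without the 4 libraries over 80% outside genes, 2.40.

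Sc5d, the sterol desaturase (chr9:42251595-42264256), had 178, 298 and 342 normalized counts in stem cells, 1036, 419, 762, 506 and 910 in tuft cells and 455, 499, 533, 769 and 1077 in enterocytes, with no overlap with stem cells. It was 2.66-fold higher in tuft cells and 2.42-fold in enterocytes. Lss, which closes squalene epoxide to lanosterol (chr10:76531588-76557138), was 2.88-fold higher in tuft cells. Sqle, the squalene epoxidase and a rate-limiting step (chr15:59315077-59331192), had 742, 779 and 604 normalized counts in stem cells. It had 1575, 1164 and 1255 in AbsPro, 1120, 2029, 1193 and 1740 in SecPDG and 1946, 1258, 1277, 1200 and 2145 in tuft cells. Its groups did not overlap with stem cells, but Sqle missed the threshold in both SecPDG (2.14-fold, adjusted p = 0.0582, edgeR) and tuft cells (2.22-fold, adjusted p = 0.0136). The late enzymes Tm7sf2, Nsdhl, Hsd17b7, Ebp and Dhcr7 were not called against stem cells in AbsPro, SecPDG, tuft cells or enterocytes.

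**Figure D3:**
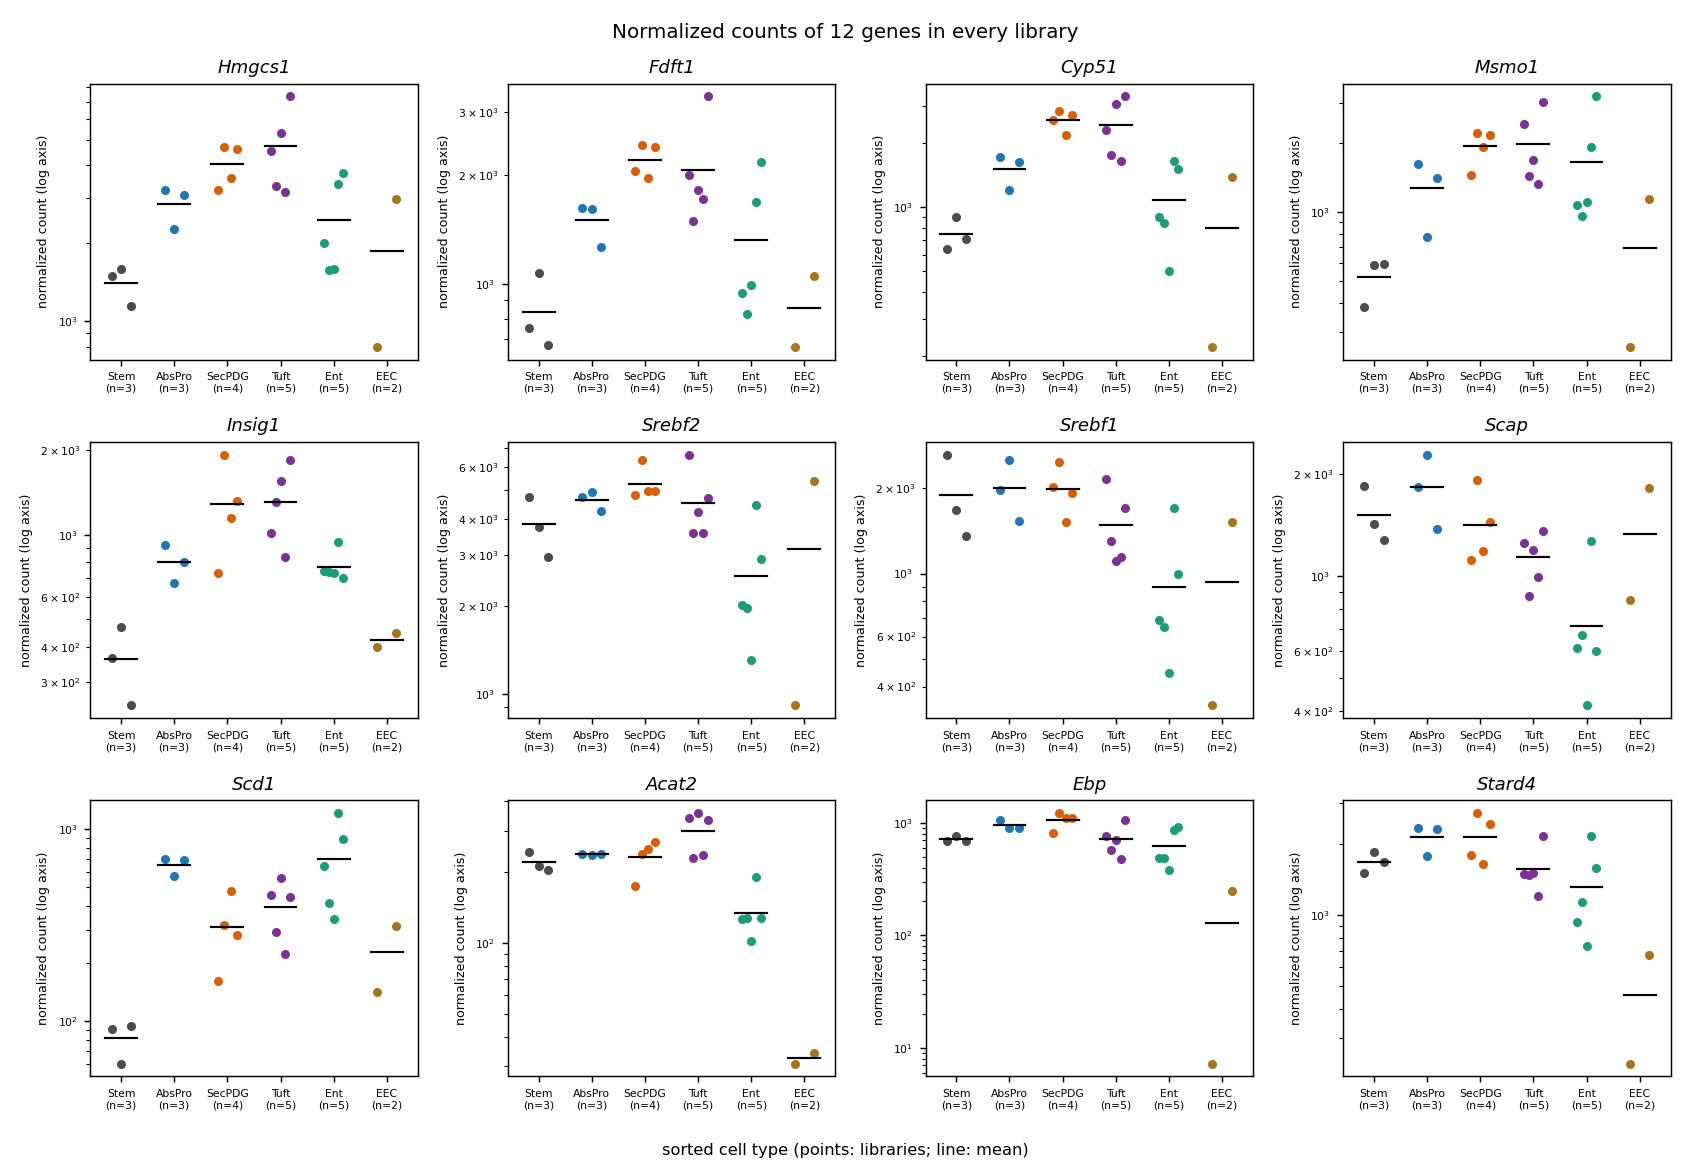
Normalized counts (log axes, not starting at 0) of 12 genes in every library, by sorted cell type; points are libraries and lines are means. Hmgcs1, Fdft1, Cyp51, Msmo1, Insig1 and Scd1 sit higher in SecPDG and tuft cells than in stem cells, and Acat2 holds 30.7 and 34.0 counts in the EEC libraries.

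Of the regulators, Insig1, which retains SREBP in the endoplasmic reticulum (chr5:28071363-28078662, plus strand), followed the sterol enzymes. It had 364, 469 and 247 normalized counts in stem cells, 923, 673 and 800 in AbsPro and 731, 1932, 1148 and 1325 in SecPDG. Tuft cells held 1019, 1312, 1552, 835 and 1848 and enterocytes 743, 738, 732, 942 and 701, so that no library of these 4 cell types fell into the stem cell range. EEC, at 398 and 448, did. Insig1 was 3.54-fold higher in SecPDG (log2 1.82 ± 0.34, adjusted p = 7.29e-05, edgeR), 3.65-fold in tuft cells (log2 1.87 ± 0.33, adjusted p = 1.8e-05) and 2.14-fold in enterocytes (log2 1.10 ± 0.33, adjusted p = 0.00433).

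Srebf2 (chr15:82147181-82205379) did not pass the test in any of the 5 comparisons with stem cells. It had 4761, 3746 and 2954 normalized counts in stem cells, 4737, 4950 and 4235 in AbsPro and 4820, 6335, 4975 and 4971 in SecPDG. In tuft cells it had 6640, 3564, 4204, 3569 and 4717, in enterocytes 2027, 1977, 1311, 4461 and 2913, and in EEC 915 and 5368. Its log2 fold change lay between -0.59 ± 0.36 in enterocytes and 0.47 ± 0.38 in SecPDG, and in enterocytes it was 0.06 without the 4 libraries over 80% outside genes. Per kilobase of exon, the mean of Srebf2 in stem cells was 532 normalized counts, above 335 for Srebf1, 203 for Scap and 117 for Insig1.

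Insig2, the relative of Insig1, was called in no comparison, with 167, 250 and 191 normalized counts in stem cells and log2 fold changes against them of 0.33 to 0.75.

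Srebf1 and Scap were called lower in enterocytes. Srebf1 (chr11:60199089-60222581) had 2626, 1681 and 1355 normalized counts in stem cells, 1973, 2508 and 1537 in AbsPro and 685, 650, 446, 1701 and 1000 in enterocytes. Ent 4 alone fell into the range of the stem cells. It was 2.10-fold lower than in stem cells (adjusted p = 0.00716) and 2.24-fold lower than in AbsPro (adjusted p = 0.00549, both edgeR). Scap (chr9:110333288-110384950), at 1836, 1419 and 1274 in stem cells, 1827, 2280 and 1380 in AbsPro and 612, 671, 416, 1265 and 600 in enterocytes, was 2.11-fold lower than in stem cells and 2.56-fold lower than in AbsPro. The direction held under each scaling. Against stem cells, however, neither gene was called with the size factors of DESeq2, the DESeq2 test or thinned counts. Nor was either called without the 4 libraries over 80% outside genes. The call of Srebf1 was also lost with library totals and with a trended dispersion.

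Of the genes that move cholesterol, none was called against stem cells outside EEC on all libraries. Abca1, the cholesterol exporter (chr4:53030787-53159895), had 763, 398 and 614 normalized counts in stem cells, 218, 468 and 234 in AbsPro and 338, 394, 278 and 219 in SecPDG. Its log2 fold change of -0.95 ± 0.37 in SecPDG did not pass (adjusted p = 0.113, edgeR), although the groups did not overlap. Tuft cells held 707, 541, 488, 435 and 267, enterocytes 722, 552, 590, 560 and 341 and EEC 1157 and 260. The log2 levels of Abca1 and Insig1 had a Pearson r of -0.39 over the 22 libraries, which differ in depth and share cell types. This r was not tested. In tuft cells and enterocytes, where Insig1 was called higher, Abca1 overlapped with stem cells. Among the 18 sterol synthesis genes the r with Insig1 ran from 0.17 for Nsdhl and 0.26 for Dhcr7 to 0.82 for Fdft1 and 0.84 for Hmgcs1, and for Srebf2 it was 0.39. With each cell type's mean taken off, the r was -0.28 for Abca1, 0.53 for Hmgcs1, 0.41 for Fdft1, 0.33 for Nsdhl and 0.27 for Dhcr7.

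In fatty acid synthesis the main mover was Scd1, stearoyl-CoA desaturase 1 (chr19:44394455-44407879), which puts a double bond into saturated fatty acids. It had 91.0, 60.2 and 95.01 normalized counts in stem cells and 697, 567 and 689 in AbsPro. SecPDG held 162, 316, 478 and 280, tuft cells 453, 293, 556, 224 and 445, enterocytes 645, 412, 342, 1212 and 886, and EEC 143 and 313. Every library outside the stem cells was above every stem cell library. Scd1 was 7.97-fold higher in AbsPro (log2 2.99 ± 0.45, adjusted p = 3.64e-05, edgeR) and 8.55-fold higher in enterocytes (log2 3.10 ± 0.43, adjusted p = 1.03e-07). In enterocytes the log2 fold change was 3.79 without the 4 libraries over 80% outside genes. It was 3.81-fold higher in SecPDG and 4.83-fold higher in tuft cells. In EEC its log2 fold change of 1.54 ± 0.59 did not pass (adjusted p = 0.0263, edgeR). Without those 4 libraries it was 2.00, a value from EEC 2 alone. Summed enterocyte markers in EEC 2 (137153) exceeded those of every enterocyte library (52155 to 76924).

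Scd2, a close relative of Scd1 on the same chromosome (chr19:44293674-44306864), was much more abundant, with a stem cell mean of 1041 normalized counts per kilobase of exon against 16.8 for Scd1. Reads that fit both genes were not examined. Scd2 had 6135, 6796 and 4139 normalized counts in stem cells, 12334, 10144 and 10418 in AbsPro and 5737, 7732, 6991 and 7414 in SecPDG. Enterocytes ran from 4786 through 6995 to 18203. It passed in no comparison with stem cells on all libraries, with a log2 fold change of 0.95 ± 0.46 in AbsPro.

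Fasn, the fatty acid synthase (chr11:120805846-120824547), had 7933, 7095 and 5248 normalized counts in stem cells, 6835, 10621 and 6312 in AbsPro and 6452, 10136, 6698 and 6479 in SecPDG. Tuft cells held 7215, 4340, 6140, 3448 and 6117, enterocytes 2737, 2518, 1303, 5443 and 3728 and EEC 940 and 5403. Against stem cells Fasn was not called, at a log2 fold change of -1.10 ± 0.38 in enterocytes (adjusted p = 0.0122, edgeR). Acly, which supplies cytosolic acetyl-CoA, Acaca, which makes malonyl-CoA, and Elovl6, an elongase, were not called against stem cells on all libraries either. The log2 fold change of Acaca was negative in all 5 cell types, none passed on all libraries, and in EEC it was 0.07 with the size factors of DESeq2 and -1.34, a call, without the 4 libraries over 80% outside genes (adjusted p = 0.00837, edgeR).

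In EEC 4 genes were called lower than in stem cells, a share near that of all genes (9.14%). Acat2 (chr17:12942890-12960747) had 244, 213 and 203 normalized counts in stem cells and 30.7 and 34.0 in EEC, a 6.70-fold lower level (log2 -2.74 ± 0.68, adjusted p = 0.000855, edgeR). The level per kilobase of the foreign gene families would account for 45.6% of its EEC mean. Ebp, the sterol isomerase (chrX:8185329-8193512), had 694, 757 and 689 in stem cells and 7.23 and 250 in EEC, and it was 4.89-fold lower. Its size differed between the EEC libraries, and the log2 fold change was -2.29 with both libraries, -1.68 without EEC 1 and -6.60 without EEC 2. Stard4, a cytosolic sterol carrier on chromosome 18, had 1502, 1845 and 1674 in stem cells and 233 and 678 in EEC. Npc2, which takes cholesterol out of lysosomes (chr12:84754562-84773152), had 1093, 1082 and 878 in stem cells and 184 and 396 in EEC.

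These 4 groups did not overlap, and the genes were lower under each scaling. Without EEC 1, the log2 fold change was -2.85 for Acat2, -1.47 for Stard4 and -1.53 for Npc2, and the call of Npc2 was lost (adjusted p = 0.0115, edgeR). Npc2 was 3.38-fold and Stard4 3.53-fold lower with both libraries. Without EEC 2 the call of Acat2 was lost (adjusted p = 0.01004, edgeR), and without the 4 libraries over 80% outside genes that of Npc2 (log2 -1.31, adjusted p = 0.0137). The 2 EEC libraries differed, for instance in Sqle at 300 and 1850 and Dhcr7 at 145 and 968. Summed stromal markers came to 3384 and 2268 normalized counts in EEC and at most 255 in stem cells (AbsPro 187 to 1493, enterocytes 737 to 1521, tuft cells 213 to 777), and summed immune markers to 2281 and 579 in EEC, 1449 to 3397 in tuft cells and at most 130 in stem cells. Adipocyte markers, of which 3 of 7 had no count in any stem cell library, summed to 915 in EEC 1 and 71.6 in EEC 2, against a stem cell maximum of 26.9, an enterocyte range of 149 to 409 and a tuft cell range of 28.4 to 343. Summed enterocyte markers came to 23185 in EEC 1 and 137153 in EEC 2, against 52155 to 76924 in enterocytes and 12569 to 23203 in stem cells. The part of such cells in the lipid gene levels was not tested.

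**Figure D4:**
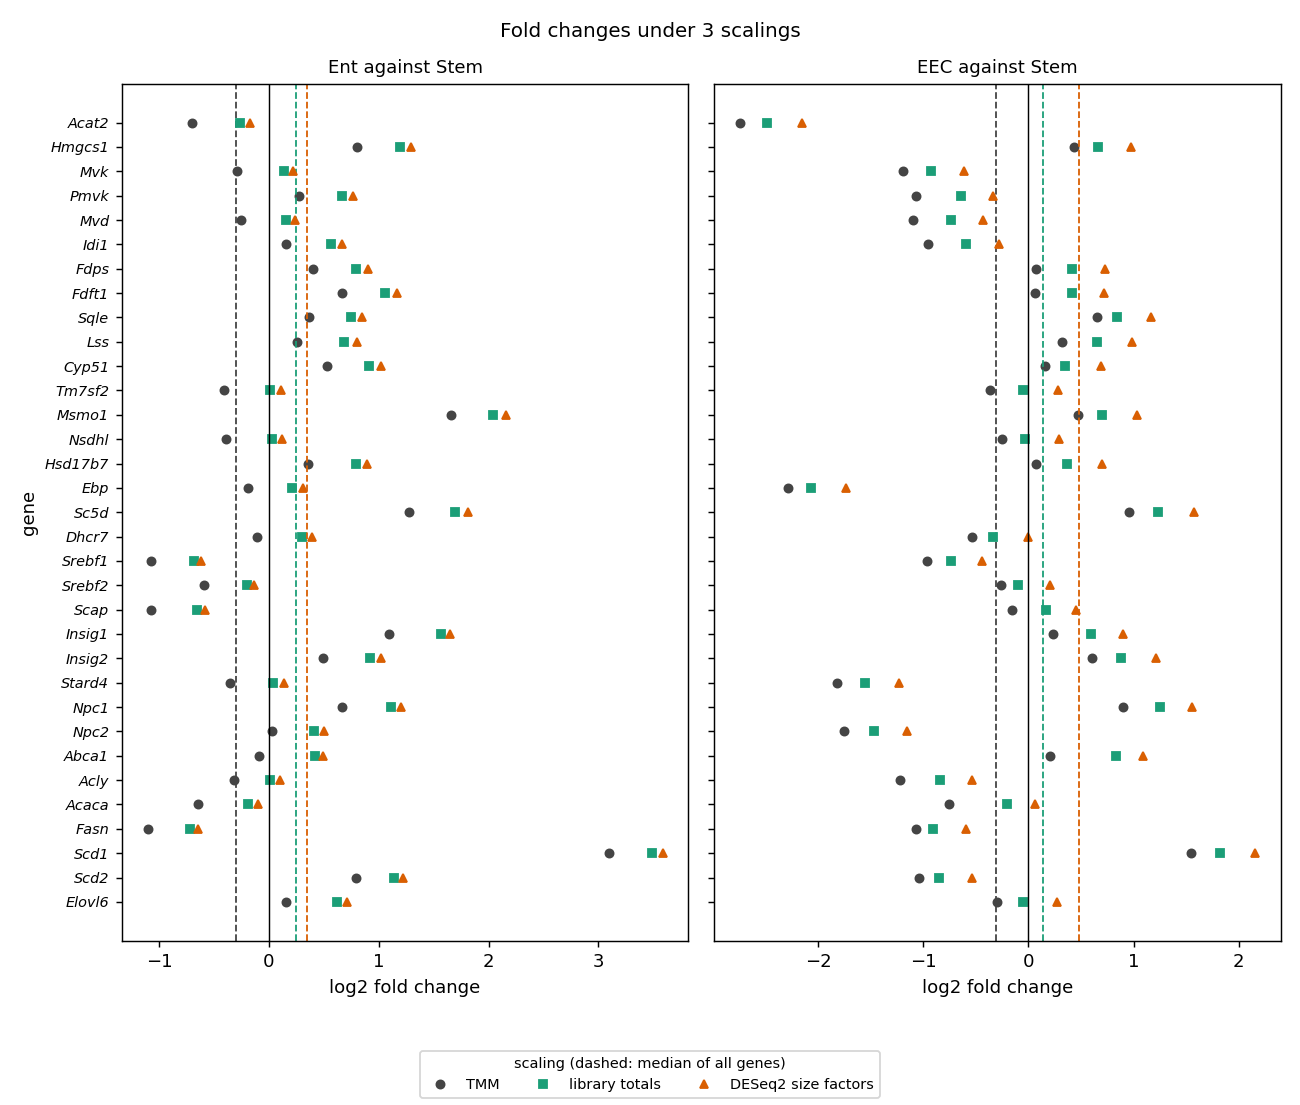
Log2 fold change of the 33 genes in enterocytes (left) and EEC (right) against stem cells under 3 scalings of the libraries; dashed lines are medians over every gene whose mean reached 50 normalized counts. The median of all genes in enterocytes moves from -0.30 with TMM to 0.35 with the size factors of DESeq2, and the genes move with it, while Scd1, Msmo1, Sc5d and Insig1 stay above it and Acat2, Ebp, Stard4 and Npc2 stay below it in EEC.

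The scaling mattered for the mature cells. The median log2 fold change of all genes went from -0.30 with TMM to 0.24 with library totals and 0.35 with the size factors of DESeq2 in enterocytes, and from -0.30 to 0.14 and 0.48 in EEC. Over all genes the split of calls in enterocytes was 2446 higher and 2614 lower with TMM and 4589 and 1485 with the size factors of DESeq2. In EEC it was 2459 and 2082, then 4396 and 1289. Of the 33 genes 13 were then called higher and 0 lower in enterocytes, and 6 higher and 4 lower in EEC, among them Scd1, with a log2 fold change of 2.15. The calls of Msmo1, Sc5d, Insig1 and Scd1 as higher in enterocytes, and of Acat2, Ebp, Stard4 and Npc2 as lower in EEC, held under all 3 scalings.

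The stem cell side rested in part on single stem cell libraries, most of all on Stem 1. Without it, calls of higher genes in SecPDG fell from 7 to 1 (Insig1), in tuft cells from 9 to 5 (Hmgcs1, Cyp51, Msmo1, Insig1 and Scd1) and in enterocytes from 4 to 2 (Msmo1 and Scd1). Scd1 stayed called in AbsPro. Without Stem 3 the calls of Hmgcs1, Fdps and Fdft1 in SecPDG, Fdps and Fdft1 in tuft cells and Insig1 in enterocytes were lost. Without Stem 2 those of Scd1 in SecPDG and Sc5d in enterocytes were lost. In SecPDG the log2 fold change without Stem 1 was 1.83 for Insig1, and for the 6 genes no longer called it ran from 1.32 (Fdps) to 2.01 (Scd1). For the 4 lost in tuft cells it was 1.25 (Fdft1), 1.26 (Fdps), 1.22 (Lss) and 1.19 (Sc5d), and for the lost pair in enterocytes 1.10 (Insig1) and 1.06 (Sc5d).

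Progenitors were then set against each other and against the mature cells of their lineage. Between SecPDG and AbsPro 0 members were called higher (all genes 2.00%) and 0 lower (1.73%) by edgeR and also by DESeq2. At an unadjusted p under 0.05, 14.2% of all genes passed in either direction. Of the members, 2 were then higher in SecPDG, Cyp51 and Insig1, and 2 lower, Nsdhl and Scd1. The latter had a log2 fold change of -1.07 ± 0.36 (adjusted p = 0.0691, edgeR). From SecPDG to tuft cells 0 members were called higher (3.01%) and 0 lower (0.347%) by edgeR and DESeq2. An unadjusted p under 0.05 was met by 0 members, against 32.7% of all genes. The 33 fold changes ran from -0.56 to 0.66 on the log2 scale. Goblet and deep crypt secretory markers summed to 816234 to 1208870 in tuft cells, beside 839668 to 3303370 in SecPDG. The part of such RNA in these fold changes, or in those of tuft cells against stem cells, was not tested.

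From AbsPro to enterocytes 0 members were higher (8.21%) and 4 were lower (7.98%), namely Scap, Fasn, Srebf1 and Nsdhl. At an unadjusted p under 0.05, which 62.0% of all genes met in either direction, 1 member was higher, and DESeq2 called 2 higher. Fasn was 2.52-fold lower in enterocytes than in AbsPro (log2 -1.33 ± 0.38, adjusted p = 0.00447, edgeR). Nsdhl, a sterol dehydrogenase (chrX:72918557-72958514), had 594, 914 and 723 normalized counts in AbsPro and 269, 297, 239, 488 and 532 in enterocytes. It was 2.04-fold lower there (adjusted p = 0.00952). With the size factors of DESeq2 the call of Scap alone held, and without the 4 libraries over 80% outside genes none did. The call of Scap was also lost without AbsPro 2 (adjusted p = 0.0108, edgeR). The 3 enterocyte libraries with the most reads outside genes were also those lowest in Srebf2, Fasn, Acly and Hmgcs1, while Ent 4 and Ent 5 lay nearer to AbsPro. The change from progenitor to mature cell was tested for a difference between the absorptive lineage and tuft cells, and 0 members were called (0.364%), also by DESeq2. At an unadjusted p under 0.05 there were 4: Acat2, Mvd, Lss and Scap, all with a negative difference, against 9.41% of all genes.

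From SecPDG to EEC 0 members were higher (11.2%) and 9 were lower (10.1%). At an unadjusted p under 0.05, which 54.8% of all genes met in either direction, 1 member was higher, and DESeq2 called 2 higher. Ebp was 7.27-fold lower (log2 -2.86 ± 0.51, adjusted p = 1.15e-05, edgeR), Acat2 7.10-fold, Stard4 4.51-fold and Acly 4.15-fold. The log2 fold change of Ebp was -2.28 without EEC 1 and -7.17 without EEC 2. Acly, ATP citrate lyase (chr11:100476353-100528000), had 8040, 12033, 8852 and 9556 normalized counts in SecPDG and 1746 and 2859 in EEC. The other 5 were Npc2, Cyp51, Insig1, Fdps and Fdft1. The calls of Insig1, Fdps and Fdft1 were lost with the size factors of DESeq2, with library totals and with the DESeq2 test. Without the 4 libraries over 80% outside genes 0 were higher by edgeR (7.64%), with 1 at an unadjusted p under 0.05, and 7 were lower (6.46%), with Pmvk (-4.87) and Idi1 (-2.59) now called and with Insig1, Fdps, Fdft1 and Cyp51 (-0.79, adjusted p = 0.0818, edgeR) no longer. Cyp51 was also lost without EEC 1 (adjusted p = 0.0365, edgeR) and with a trended dispersion, Fdft1 with thinned counts and a trended dispersion, and Fdps with a trended dispersion. Fdft1 and Fdps were lost without SecPDG 4 or EEC 1, and Fdps without EEC 2. In EEC 1, Pmvk (320 normalized counts) and Idi1 (210) lay within the range of SecPDG, and in EEC 2 they had 12.1 and 48.5. The SecPDG libraries are shared with the comparison with AbsPro and with tuft cells.

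Within a cell type, most pairs of the lipid genes rose and fell together from library to library, though not all. After each gene's mean in its cell type was taken off, the median Pearson r over the 528 pairs of members was 0.57 across the 22 libraries, beside 0.18 over all pairs of the 13188 genes whose mean reached 50. Single pairs of members ran from -0.77 to 0.96. The median was 0.50 among the 8 genes up to squalene and 0.52 among the 18 sterol synthesis genes. Among the 10 genes from squalene to cholesterol it was 0.63, among the 6 of fatty acid synthesis 0.65 and among the 4 of cholesterol transport 0.16. The libraries differ in depth and in the reads outside genes, which the pairs share. Tuft 5, with 43.4% of reads outside genes, the least among tuft libraries, had the highest sum of sterol synthesis genes, 29257.

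A further 61 genes of the same pathways, chosen as lists with earlier results known, were read in the same fit. In SecPDG 1 of them was called higher (all genes 3.38%) and 3 lower (1.60%), in tuft cells 8 (7.83%) and 5 (4.23%), in enterocytes 6 (10.7%) and 10 (11.5%) and in EEC 6 (10.8%) and 8 (9.14%). Without the 4 libraries over 80% outside genes the counts were 6 (4.92%) and 6 (3.43%) in SecPDG, 9 (8.28%) and 8 (7.41%) in tuft cells, 6 (6.49%) and 2 (3.80%) in enterocytes and 11 (7.46%) and 8 (6.38%) in EEC. In AbsPro 0 were called by edgeR on all libraries, with a median log2 fold change of 0.12. Without the 4 libraries 2 were higher there (1.49% of all genes), Agpat2 (1.21) and Nceh1 (1.48), and 0 lower (0.433%). Among regulators, Mlxipl, the carbohydrate-responsive factor ChREBP, was lower in all 4, with a log2 fold change of -2.48 in SecPDG and -2.16 in tuft cells, and of -2.22 and -2.17 in enterocytes and EEC. Nr1h3, the LXR alpha receptor, had 303 ± 46.7 normalized counts in stem cells (SD, n = 3) and 76.1 ± 22.1 in SecPDG (n = 4), a log2 fold change of -1.99, and -1.88 in tuft cells.

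Among other genes of sterol transport, 6 of 15 were called higher in enterocytes (10.7% of all genes) and 1 lower (11.5%), and without the 4 libraries over 80% outside genes 3 were called higher (6.49%). Npc1l1, which takes up dietary sterol, had 8.66 ± 9.34 normalized counts in stem cells and 203 ± 55.4 in enterocytes (log2 4.44 ± 0.75). Abcg8 and Abcg5, which pair as a sterol exporter, had log2 fold changes of 3.99 and 2.57 there. Without the 4 libraries Npc1l1 (4.17) and Abcg8 (3.88) stayed called, while Abcg5 (2.75) did not. These levels were low, and the foreign gene families would account for 10.1% of the Npc1l1 mean in enterocytes, 11.4% of that of Abcg8 and 7.79% of that of Abcg5. In EEC Npc1l1 had a log2 fold change of 4.71, Abcg8 of 4.45 and Abcg1 of 3.51, and Gramd1b, which carries cholesterol from the plasma membrane, of 3.35. Abcg8 had 18.2 normalized counts in one EEC library and 452 in the other, and without the 4 libraries its log2 fold change in EEC was 1.00 and not called, beside 4.11 for Npc1l1 and 3.97 for Abcg1, which stayed called. The foreign gene families would account for 10.1% of the EEC mean of Npc1l1, 9.24% of that of Abcg8 and 3.78% of that of Abcg1. In tuft cells Abcg8 (3.12), Npc1l1 (3.04) and Gramd1b (1.83) led the genes called higher. Scarb1 was lower in enterocytes (-1.25, and -0.83, not called, without the 4 libraries) and Stard3 in EEC (-1.77). In SecPDG the 1 gene called was Nceh1, a cholesteryl ester hydrolase, at 1.43.

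Among other sterol and isoprenoid genes none was called higher against stem cells. Pdss1, for the tail of coenzyme Q, was lower in SecPDG (-1.36), tuft cells (-1.46) and EEC (-2.79), Coq2 in enterocytes (-1.40) and EEC (-1.55) and Dhdds in enterocytes (-1.06). The calls of Coq2 and Dhdds were lost without the 4 libraries over 80% outside genes. Of 27 other genes of fatty acid and triglyceride synthesis 6 were lower in enterocytes (11.5% of all genes) and 0 higher (10.7%). Without those 4 libraries 1 was lower (3.80%), Fads1 at -2.99, and 2 were higher (6.49%). Fads1, a desaturase of polyunsaturated fatty acids, had 1296 ± 236 normalized counts in stem cells and 181 ± 83.6 in enterocytes (log2 -2.86 ± 0.31), with -1.68 in tuft cells and -1.77 in EEC. Fads2, its partner, was lower in tuft cells (-1.70) and EEC (-3.75), and Acss2, which makes acetyl-CoA from acetate, in enterocytes (-1.20, and -0.47, not called, without the 4 libraries) and EEC (-2.72). Acsl1, an acyl-CoA synthetase, was lower in enterocytes (-1.18, and -0.73, not called, without them). Lpin2 was higher in EEC (1.86), and Acsl4 (1.52), Lpin1 (1.19) and Acacb (1.12) were higher in tuft cells.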

How the data were processed

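RNA of 22 libraries of sorted colon crypt cells was analysed, grouped by GEO's labels. The authors aligned paired reads to mm10 with STAR 2.5.2a, counted them on genes with HTSeq 0.6.1p1 without regard to strand, and deposited raw counts per gene with no normalization. Each file ends with 5 summary entries without a gene name, which entered neither library sizes nor tests. The deposited tables of splicing and polyadenylation, with the authors' own comparisons, were not used.

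The 33 genes and all lists were chosen with earlier results of these data known. After filterByExpr, which left 22781 genes, and TMM normalization, edgeR 4.0.16 (R 4.3.3) fitted the 22 libraries jointly with a mean per cell type, and contrasts were tested by quasi-likelihood. Calls required p under 0.01 after Benjamini-Hochberg adjustment and, across libraries, an average of 50 normalized counts or more, the thresholds of the study. An SE is the log2 fold change over the square root of F. Tested on simulated data, the fit returned fold changes near their true size but left most changed genes uncalled. Replicates come from independent mice or pools of mice and sorts. Counts on genes per library ran from 4122122 to 22462518, so that EEC, with 2 libraries, is the least precise.

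Values are given for Srebf1, Srebf2, Insig1, Hmgcs1, Sqle, Idi1, Abca1, Fasn, Scd1, Scd2, Stard4 and, per comparison, for up to 4 called members with the largest increase and 4 with the largest decrease. Of other pathway genes, up to 3 called in each direction against stem cells are named per list. 5 genes of these lists are not reported here. Alternatives were DESeq2 1.42.0, other scalings, no filter, no minimum mean, thinned counts, a replicate block and each library left out. A trended dispersion and leaving out 4 libraries were added after the data were seen. Positions and exon lengths are from GENCODE M21 on GRCm38, the assembly of mm10. Figures were made with Python 3.11.15 and matplotlib 3.10.9.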

Additional observations from a re-analysis of the deposited data

Results flagged for a closer look

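In 99 checks of a member in a cell type with 4 or 5 libraries, 8 had a library far from the others by Dixon's criterion at 95%, which chance gives in about 1 of 20 groups. In Tuft 5, Fdft1 (3315 normalized counts, next 2002) and Hsd17b7 (354, next 262) were high, and in Tuft 2 Npc1 was low (557, next 813). SecPDG 2 was high for Srebf2 (6335, next 4975) and Fasn (10136, next 6698), and SecPDG 1 was low for Lss (565, next 960). Ent 4 was high for Acat2 (190, next 127) and Insig1 (942, next 743). Tuft 5 had the fewest reads outside genes among tuft libraries, 43.4%, and Ent 4 among enterocyte libraries, 66.8%. Whether these values are tied was not tested.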

How the results depend on the processing

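No called change reversed direction under any alternative. Counts of members called that moved by over 1.5 times were as follows. With DESeq2, 3 were higher in AbsPro, 11 in SecPDG, 12 in enterocytes (0 lower) and 6 in EEC against stem cells, 2 higher and 1 lower in enterocytes against AbsPro, and 2 higher in EEC against SecPDG. The size factors of DESeq2 gave 13 and 0 in enterocytes and 6 higher in EEC against stem cells, 1 and 1 in enterocytes against AbsPro, and 2 higher in EEC against SecPDG. Over all 22781 genes these size factors called 4589 and 1485, 4396, 3605 and 711, and 4427 in that order. Library totals gave 12 and 1, 3 higher, 2 lower and 2 higher in the same order, and 1 lower in SecPDG against AbsPro. Over all genes library totals called 4156 and 1703, 3450, 805, 4024 and 824. Thinned counts gave 0 lower in enterocytes against stem cells, 1 lower against AbsPro and 1 higher in EEC against SecPDG. Of the alternatives added after the data were seen, a trended dispersion gave 4 higher in SecPDG and 1 lower in enterocytes against stem cells and 1 lower against AbsPro. Leaving out the 4 libraries gave 5 higher in AbsPro, 11 in SecPDG, 11 in enterocytes (0 lower) and 5 in EEC against stem cells, 1 lower in SecPDG and 0 lower in enterocytes against AbsPro. No share of all genes is set beside the other counts here and below, which show only how calls moved. The cause was not tested.

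With a replicate block, 1 member was higher and 7 lower in enterocytes against AbsPro, and no other count moved by over 1.5 times. Same-numbered libraries of different cell types had a median r of 0.00 over 44 pairs (-0.39 to 0.49). Libraries of other numbers had 0.02 over 154 pairs (-0.57 to 0.61). Whether some same-numbered libraries share mice or sorts cannot be told from such medians.

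Leaving out 1 library gave 1 to 10 members higher in SecPDG, 5 to 10 in tuft cells and 2 to 4 in enterocytes against stem cells, each lowest without Stem 1, and 1 to 1 in AbsPro and 0 to 0 in EEC. It gave 0 to 5 lower in enterocytes and 4 to 9 in EEC (9 without EEC 2), 0 to 13 lower in enterocytes against AbsPro (0 without AbsPro 2, 13 without EEC 1), 0 to 1 higher and 7 to 18 lower in EEC against SecPDG (18 without EEC 2), and 14 to 23 over the 6 cell types.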
